A study of Homo sapiens with 8 samples.

Results

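The expression of 10 genes that lengthen, desaturate and activate fatty acids was examined in Panc 10.05 cells, a human line established from a pancreatic ductal adenocarcinoma. The genes were chosen by symbol from the 58870 gene rows of the table: the fatty acid desaturases FADS1, FADS2 and FADS3, the elongases ELOVL1, ELOVL4, ELOVL5 and ELOVL7, and the long-chain acyl-CoA synthetases ACSL1, ACSL3 and ACSL4. Each symbol matched 1 row. RNA sequencing had been performed on 4 control libraries and on 4 libraries of cells carrying an ELAPOR1 transgene (endosome-lysosome associated apoptosis and autophagy regulator 1), and the series title asks about the classical subtype and metabolic reprogramming. The labels name no promoter or vector for the transgene, no treatment of the control cells and no clone, batch or time, and do not say whether replicates were separate cultures, so the p-values below measure only the spread between these libraries.

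Control libraries held 16558600 to 18128757 counts and ELAPOR1 libraries 13765509 to 17258166 counts (n = 4 each, two-sided exact permutation p = 0.143). ELAPOR1 itself, listed under its older symbol KIAA1324, was at 0.0554 to 0.244 CPM (counts per 1000000, scaled between libraries by TMM) in control and at 425 to 430.0 CPM in ELAPOR1 libraries, so all 8 libraries matched their labels. The 6 epithelial markers (EPCAM, CDH1 and the keratins KRT7, KRT8, KRT18 and KRT19) summed to 11929 to 13196 CPM in control and 11159 to 11510 CPM in ELAPOR1 libraries. They moved in opposite directions: KRT18 (log2 change -0.36, edgeR adjusted p = 2.2e-12) and KRT8 (-0.16, adjusted p = 9.3e-06), which make up most of the sum, fell. KRT7 (0.31, edgeR adjusted p = 6.5e-11), KRT19 (0.25, adjusted p = 3.4e-07) and CDH1 (0.11, adjusted p = 2.9e-03) rose, and EPCAM was not called (-0.025, adjusted p = 0.491). Of 24 markers of fibroblasts, leukocytes, endothelial, acinar and endocrine cells, 20 had at most 10 counts in every library, and 12 were at 0 throughout, among them DCN, LUM, COL1A2, CD3E, CDH5 and all 4 acinar markers. The sum of the 24 was 11.6 to 14.1 CPM in control and 12.4 to 13.0 CPM in ELAPOR1 libraries. Most of it came from CSF1R (mean 7.21 CPM in control, 8.12 with ELAPOR1, edgeR adjusted p = 0.244) and COL1A1 (3.35 and 2.93, adjusted p = 0.422). VWF, an endothelial marker, was called lower (1.69 and 0.761 CPM, log2 change -1.14, edgeR adjusted p = 1.9e-03).

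Polyunsaturated fatty acids are made from the dietary essential fatty acids linoleic and alpha-linolenic acid by alternating desaturation and elongation in the endoplasmic reticulum. FADS2 performs the entry desaturation, ELOVL5 lengthens its product, and FADS1 then desaturates again to give arachidonic and eicosapentaenoic acid. Acyl-CoA synthetases couple free fatty acids to coenzyme A, without which they can be neither elongated nor built into phospholipids. The desaturases are known targets of the sterol regulatory element binding proteins (SREBPs), transcription factors that switch on lipid synthesis when membrane sterols or unsaturated fatty acids are scarce.

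The desaturases fell and most of the other genes stayed close to control. Mean FADS1 fell by 39.5%, FADS2 fell by 56.3% and FADS3 fell by 49.9%, while ELOVL7 fell by 14.7% and ACSL4 fell by 6.66%. Of the 10 genes, 9 were tested and 5 were called at an edgeR adjusted p-value under 0.05, all 5 lower. Of all 13860 tested genes 44.7% were called, 22.1% in the lower direction and 22.6% in the higher. The share called in either direction, 55.6%, was thus near that of all genes, while no gene of the group was called higher. The median log2 fold change was -0.099 over the 9 tested genes and 0.00087 over all tested genes. All ELAPOR1 libraries lay below all control libraries for 4 of the 9 (FADS1, FADS2, FADS3 and ELOVL7), and for none did they lie above. Over all tested genes the groups did not overlap in 39.2%, with ELAPOR1 below in 19.3% and above in 20.0%. In bulk RNA, fewer cells with a transcript and less transcript per cell cannot be told apart.

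**Figure D1:**
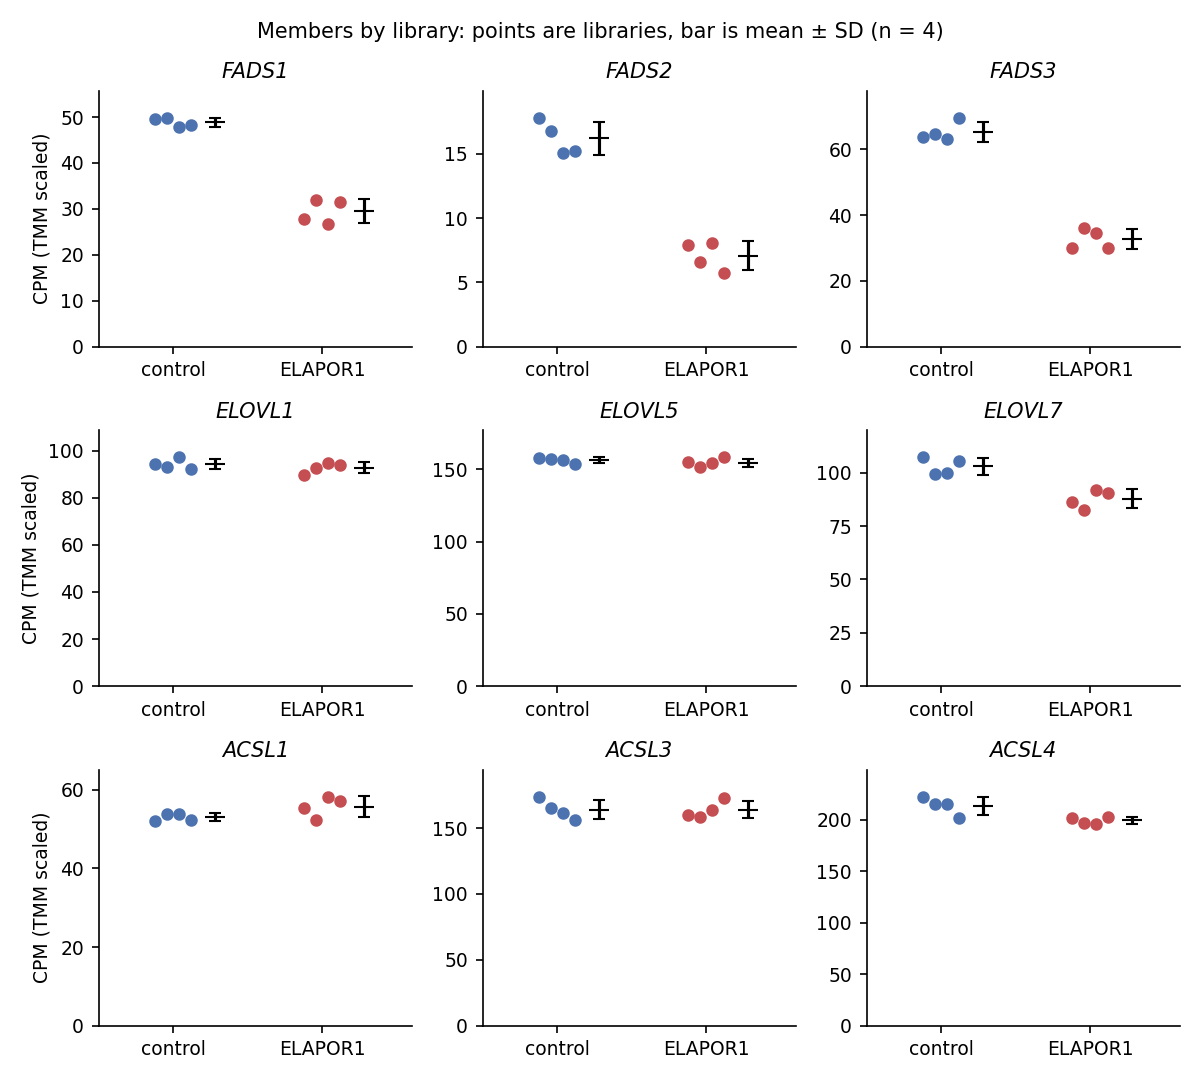
CPM of the 9 genes with counts in each library (points; blue control, red ELAPOR1) with the mean and SD of 4 libraries (black), on axes that start at 0. The groups are separate for FADS1, FADS2, FADS3 and ELOVL7 and overlap for the other 5 genes.

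The 3 desaturase genes lie side by side on chromosome 11 in GENCODE release 29 on GRCh38. FADS2 (ENSG00000134824.14) occupies 61792980 to 61867354 on the plus strand. FADS1 (ENSG00000149485.18) occupies 61799625 to 61829318 on the minus strand, inside the span of FADS2, and FADS3 (ENSG00000221968.9) occupies 61873519 to 61892051 on the minus strand. The RefSeq start sites examined for FADS2 lie close to that of FADS1, on the opposite strand. The FADS1 start at 61817003 lies 800 bases beyond the first of them and 599 bases beyond the second. Other starts of FADS2 were not examined, although in GENCODE the gene begins at 61792980. The distances therefore hold only for the starts examined. The FADS3 start lies 74542 bases from that of FADS1. The use of strand in counting was not stated, so reads from stretches where FADS1 and FADS2 overlap could have gone to either. The deposited counts of all 10 genes were whole numbers in every library, to within 1e-09, although RSEM divides reads that fit several transcripts of different genes.

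The 250 bases upstream of desaturase start sites examined are shown because these genes moved together. They are RefSeq sequences on GRCh38.p14, printed 5′ to 3′ on the strand of the gene, with capitals for motif matches on either strand. The motifs searched were CCAAT (bound by NF-Y), GGGCGG (the GC box of SP1), CACGTG (an E-box) and TCACNCCAC (a form of the sterol regulatory element). The windows are chr11:61817004-61817253 (minus strand) for FADS1, chr11:61816154-61816403 (plus strand) for the second start of FADS2 and chr11:61891546-61891795 (minus strand) for FADS3.
FADS1: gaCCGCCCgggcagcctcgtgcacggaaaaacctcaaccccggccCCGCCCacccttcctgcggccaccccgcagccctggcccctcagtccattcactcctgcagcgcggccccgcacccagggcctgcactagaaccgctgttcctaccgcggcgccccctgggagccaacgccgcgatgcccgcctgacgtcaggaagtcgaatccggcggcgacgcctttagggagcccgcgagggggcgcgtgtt
FADS2: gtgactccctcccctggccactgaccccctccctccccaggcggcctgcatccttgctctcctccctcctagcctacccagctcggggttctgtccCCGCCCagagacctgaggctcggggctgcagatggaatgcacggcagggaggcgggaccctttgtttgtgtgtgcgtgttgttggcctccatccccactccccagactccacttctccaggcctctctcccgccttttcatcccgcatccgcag
FADS3: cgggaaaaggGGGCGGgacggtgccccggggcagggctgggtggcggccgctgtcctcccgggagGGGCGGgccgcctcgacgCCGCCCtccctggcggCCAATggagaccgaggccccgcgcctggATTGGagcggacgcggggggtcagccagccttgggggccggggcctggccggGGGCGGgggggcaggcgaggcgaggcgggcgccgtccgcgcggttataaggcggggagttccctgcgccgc

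The FADS1 window held GGGCGG at 2 places, the FADS2 window at 1, and the FADS3 window at 4, all in forward or reverse complement and with no overlap between matches. The window of the first FADS2 start examined held none of the 4 motifs. Windows at other FADS2 starts were not searched, so a lack of motifs holds only for the windows examined. In these windows FADS3 alone of the trio held CCAAT, at 2 places, the last of them reading ATTGG in the printed strand. Over all 10 genes, 9 held GGGCGG in at least 1 window and 6 held CCAAT, while 46.2% and 37.0% of 27305 genes did. Those 27305 include genes that were not tested here. Members also differ in their number of windows, and ACSL1 held CCAAT only in that of its start at 184805553. The shares are therefore no like comparison and show no enrichment. CACGTG was in windows of ELOVL4 and ELOVL5 (7.73% of genes), and TCACNCCAC in a window of ACSL1 (1.09% of genes), which has several RefSeq starts. These matches are letters in a window and were not tested for binding.

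FADS2, the entry desaturase, was at 17.8, 16.8, 15.1 and 15.2 CPM in control libraries and at 7.92, 6.59, 8.06 and 5.77 CPM in ELAPOR1 libraries. Every ELAPOR1 library was below every control library. The counts behind these values were 250 to 321 in control and 99 to 129 in ELAPOR1 libraries, the fewest of the trio. The mean fell from 16.2 ± 1.29 in control to 7.08 ± 1.10 CPM with ELAPOR1 (mean ± SD of 4 libraries, here and below), which is a log2 change of -1.20 (SE 0.105, 95% interval -1.42 to -0.99, edgeR adjusted p = 1.6e-11). Ranked from the most lowered, FADS2 was the 77th of 13860 tested genes.

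FADS3, which desaturates the sphingoid base of ceramides, was at 63.7, 64.6, 63.2 and 69.6 CPM in control and at 30.1, 36.1, 34.6 and 29.9 CPM in ELAPOR1 libraries. The groups were far apart, with the highest ELAPOR1 library well below the lowest control library. The mean fell from 65.3 ± 2.92 in control to 32.7 ± 3.13 CPM with ELAPOR1 (log2 change -1.0, SE 0.0573, edgeR adjusted p = 5.1e-16). FADS1, which completes arachidonic acid, was at 49.7, 49.8, 47.8 and 48.2 CPM in control and at 27.9, 32.0, 26.8 and 31.6 CPM in ELAPOR1 libraries. The mean fell from 48.9 ± 1.04 in control to 29.6 ± 2.62 CPM with ELAPOR1 (log2 change -0.72, SE 0.0587, edgeR adjusted p = 3.2e-12). In each of the 3 desaturases the libraries of the ELAPOR1 group varied more around their mean than control libraries did. Coefficients of variation were 8.85%, 15.5% and 9.57% for FADS1, FADS2 and FADS3 against 2.12%, 7.94% and 4.47% in control. The ELAPOR1 libraries also had fewer counts of these genes, for FADS1 372 to 547 against 790 to 896 in control. Counting error was not separated from other spread. Tested against a change of 1.5-fold, FADS2 (edgeR adjusted p = 1.7e-05) and FADS3 (adjusted p = 4.2e-07) passed and FADS1 did not (adjusted p = 0.146), where 0.657% of all tested genes passed in the lower direction.

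The sum of the 3 desaturases went from 130.3 ± 2.96 to 69.3 ± 3.87 CPM. The ratio of FADS1 to FADS2 counts within a library, which does not depend on scaling, was 2.79, 2.97, 3.16 and 3.16 in control and 3.52, 4.86, 3.32 and 5.47 in ELAPOR1 libraries, so that the groups did not overlap. The ratio of FADS3 to FADS1 was 1.34 ± 0.0736 in control and 1.11 ± 0.141 in ELAPOR1 libraries, with overlap. These ratios are given as descriptions, without a test.

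**Figure D2:**
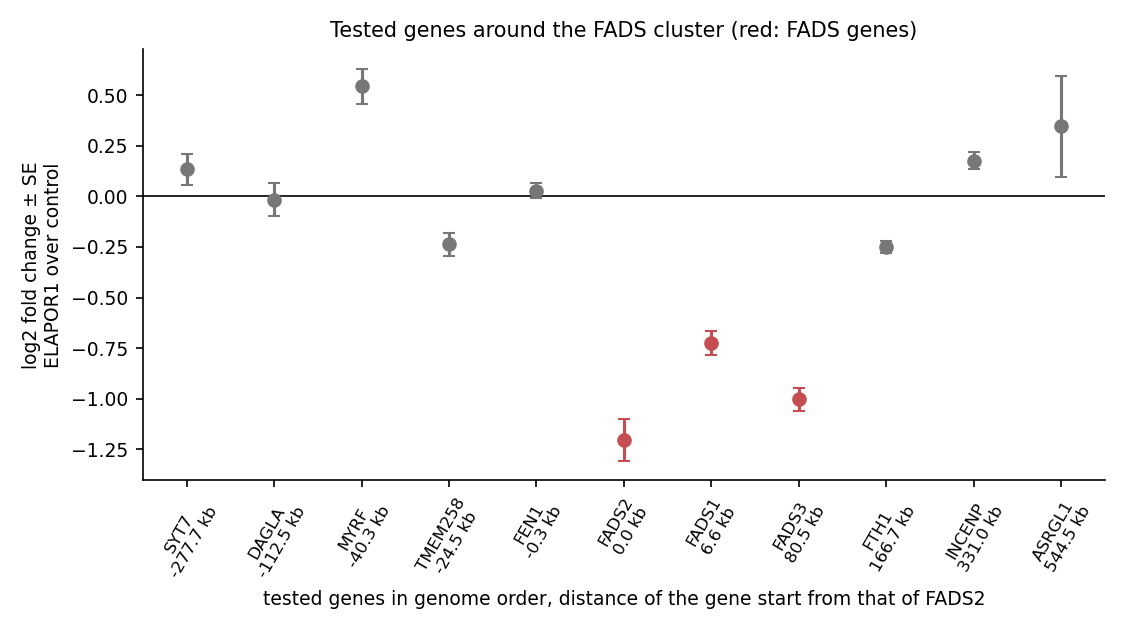
Log2 fold change with its SE for FADS2 and the 5 tested genes on each side in genome order, labelled with the distance of the gene's start from that of FADS2 in kilobases. The FADS genes (red) lie at -0.72 to -1.20, and the other 8 genes (grey) between -0.25 and 0.54.

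The tested genes around the cluster went in both directions, with smaller changes. FEN1, the flap endonuclease of DNA replication, overlaps FADS2 in the annotation and was at 130.9 ± 6.02 CPM in control and 133 ± 3.08 CPM in ELAPOR1 libraries (log2 fold change 0.028, edgeR adjusted p = 0.578). MYRF, which encodes a membrane-bound transcription factor and overlaps TMEM258 in the annotation, rose from 12.1 ± 0.757 in control to 17.6 ± 1.64 CPM with ELAPOR1 (log2 change 0.54, edgeR adjusted p = 3.9e-06). TMEM258, a subunit of the oligosaccharyltransferase, fell by 0.24 (adjusted p = 7.9e-04) and FTH1, the ferritin heavy chain, fell by 0.25 (adjusted p = 1.4e-08) on the log2 scale. INCENP, a subunit of the chromosomal passenger complex, rose by 0.18 (edgeR adjusted p = 8.7e-04). The microRNA genes MIR1908 inside FADS1 and MIR6746 inside FADS3 were listed at 0 in every library. Both are short entries on the strand of their host gene, so these counts do not show whether the microRNAs were present.

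Among the elongases, ELOVL7 changed and ELOVL1 and ELOVL5 stayed within narrow limits. ELOVL7 (ENSG00000164181.14, chromosome 5, 60751791 to 60844389), which lengthens saturated very-long-chain fatty acids, was at 107, 99.5, 99.8 and 105 CPM in control and at 86.2, 82.4, 92.0 and 90.7 CPM in ELAPOR1 libraries. The groups did not overlap, and the mean fell from 103 ± 3.88 in control to 87.8 ± 4.36 CPM with ELAPOR1 (log2 change -0.23, SE 0.0417, edgeR adjusted p = 2.7e-05).

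ELOVL5 (ENSG00000012660.14, chromosome 6, 53267398 to 53349179), the elongase between the desaturation steps, was at 158, 157, 157 and 154 CPM in control and at 155, 152, 154 and 158 CPM in ELAPOR1 libraries. The groups overlapped almost wholly. The log2 fold change was -0.015 with a 95% interval from -0.082 to 0.051 (edgeR adjusted p = 0.739). ELOVL1 (ENSG00000066322.15, chromosome 1, 43363397 to 43368074), which makes the very long chains of ceramides, was at 94.2 ± 2.15 CPM in control and 92.9 ± 2.16 CPM in ELAPOR1 libraries (log2 fold change -0.021, 95% interval -0.10 to 0.057, edgeR adjusted p = 0.689). For both genes a change of the size seen in the desaturases lies outside the interval.

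ELOVL4 (ENSG00000118402.6, chromosome 6, 79914812 to 79947580), known for the very long polyunsaturated chains of retina, brain and skin, had 0 counts in all 8 libraries. A count of 0 allows up to 0.165 to 0.218 CPM, depending on the library (3 counts of its total, covering counting error only). No comparison was possible for it.

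The elongases outside the group went in both directions. ELOVL6, which extends palmitate to stearate, fell from 94.5 ± 2.47 in control to 78.9 ± 3.06 CPM with ELAPOR1 (log2 change -0.26, SE 0.0409, edgeR adjusted p = 2.8e-06), with no overlap. ELOVL3 was near the limit of detection at 10 to 16 counts in control and 18 to 27 in ELAPOR1 libraries. It was called higher (log2 fold change 0.92, SE 0.315, edgeR adjusted p = 0.0174), but not without control replicate 1 (adjusted p = 0.0630) or ELAPOR1 replicate 2 (adjusted p = 0.0724). ELOVL2, an elongase for long polyunsaturated chains, had 0 to 2 counts in control and 2 to 6 in ELAPOR1 libraries and was not tested.

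**Figure D3:**
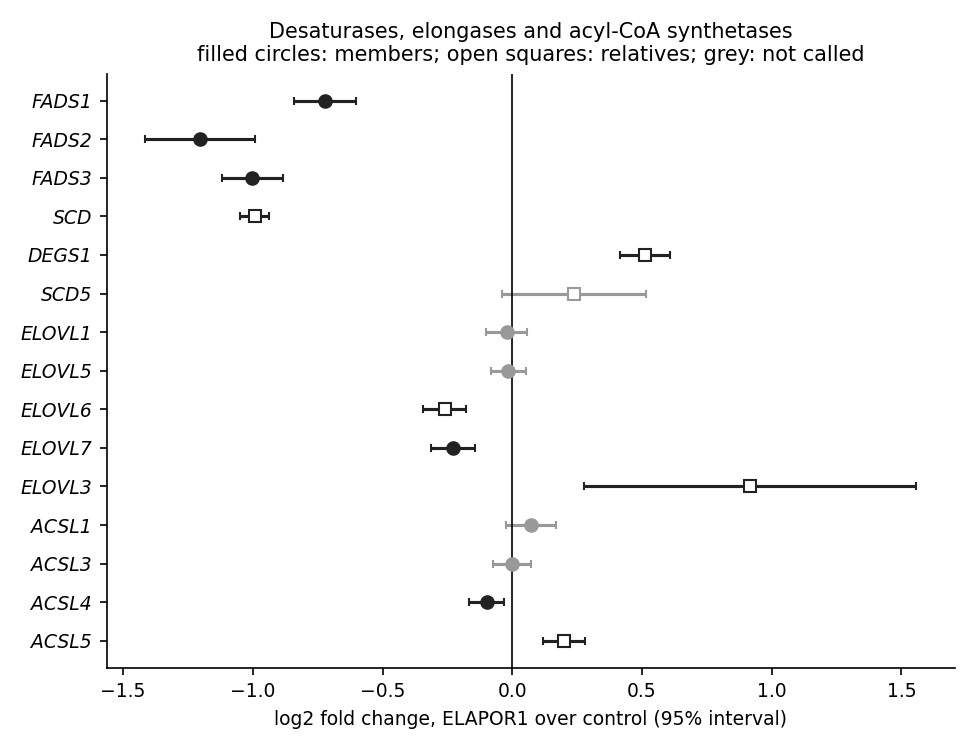
Log2 fold change with its 95% interval for the tested members (circles) and their relatives in the same enzyme families (squares), in grey where the edgeR adjusted p-value was 0.05 or more. FADS1, FADS2, FADS3 and SCD lie at -0.72 to -1.20, and ELOVL1, ELOVL5, ACSL1 and ACSL3 lie within 0.1 of 0.

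The acyl-CoA synthetases moved little. ACSL4 (ENSG00000068366.19, chromosome X, 109624244 to 109733403), which prefers arachidonic acid and other polyunsaturated substrates, was at 222, 215, 215 and 202 CPM in control and at 202, 197, 196 and 202 CPM in ELAPOR1 libraries. Control replicate 4 lay at the level of the highest ELAPOR1 libraries, so the groups overlapped. The mean fell from 213 ± 8.45 in control to 199 ± 3.25 CPM with ELAPOR1 (log2 change -0.099, SE 0.0328, edgeR adjusted p = 0.0132). This call was lost with total count scaling (log2 fold change -0.078, edgeR adjusted p = 0.0520).

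ACSL3 (ENSG00000123983.14, chromosome 2, 222860934 to 222944639), an enzyme of the endoplasmic reticulum and lipid droplets, was at 156 to 174 CPM in control and 159 to 173 CPM in ELAPOR1 libraries. The range of the ELAPOR1 libraries lay inside that of control. Its log2 fold change was -0.0014 (95% interval -0.075 to 0.073, edgeR adjusted p = 0.980), and its sign changed with total count scaling and without some single libraries. ACSL1 (ENSG00000151726.14, chromosome 4, 184755595 to 184826818), which activates fatty acids for both storage and oxidation, was at 52.2 to 53.9 CPM in control and 52.3 to 58.2 CPM in ELAPOR1 libraries. Its log2 fold change was 0.071 (95% interval -0.026 to 0.17, edgeR adjusted p = 0.237).

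ACSL5, a mitochondrial and endoplasmic reticulum isozyme outside the group, rose from 83.8 ± 2.66 to 96.2 ± 1.49 CPM with no overlap (log2 fold change 0.20, SE 0.0394, edgeR adjusted p = 8.7e-05). The ratio of ACSL5 to ACSL4 counts within a library was 0.382 to 0.404 in control and 0.465 to 0.494 in ELAPOR1 libraries. The ratio of ACSL4 to ACSL3 was 1.28 to 1.33 in control and 1.17 to 1.26 in ELAPOR1 libraries, again without overlap. The sum of ACSL1, ACSL3, ACSL4 and ACSL5 was 514 ± 17.4 CPM in control and 515 ± 9.01 CPM in ELAPOR1 libraries. ACSL6 had at most 4 counts in any library and was not tested.

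Levels of different genes were compared per kilobase of the union of their annotated exons, as control means in CPM per kilobase. ELOVL5 (41.0 ± 0.480) and ELOVL1 (37.6 ± 0.856) stood highest, followed by ACSL4 (33.3 ± 1.32), ACSL3 (22.7 ± 1.02) and ELOVL7 (22.5 ± 0.848). ACSL3 and ELOVL7 differed by less than their spread. FADS3 (10.4 ± 0.464) and ACSL1 (8.44 ± 0.162) came next, and FADS1 (4.77 ± 0.101) and FADS2 (1.47 ± 0.117) were lowest of the genes with counts. With the longest transcript as the length, FADS1 was at 10.8 and FADS2 at 3.20 CPM per kilobase in control. With that length ELOVL1 (58.0) passed ELOVL5 (50.8), and ACSL1 (12.9) passed FADS3 (12.3). Ranked among tested genes by mean level per kilobase over all 8 libraries, FADS2 was at the 19.2 percentile, FADS1 at 43.5, FADS3 at 61.1 and ELOVL5 at 92.5.

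Isozyme shares within a family were described in the same unit. Of the summed level per kilobase of the 4 synthetases, ACSL4 made up 39.5% ± 0.325 in control and 36.4% ± 0.431 in ELAPOR1 libraries, and ACSL5 23.5% ± 0.544 and 26.7% ± 0.712 (SD, n = 4 each). Of ELOVL1, ELOVL5, ELOVL6 and ELOVL7, the share of ELOVL7 was 19.7% ± 0.698 in control and 17.8% ± 0.538 in ELAPOR1 libraries. Within the desaturase trio, FADS1 made up 28.7% ± 0.862 in control and 33.1% ± 2.96 in ELAPOR1 libraries. With the longest transcript as the length, its share was 41.1% ± 0.857 in control and 46.4% ± 3.48 in ELAPOR1 libraries. The size of a share thus depends on the length chosen.

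The rest of the pathway was described with 9 lists of 114 further genes, of which 112 had a row, 89 were tested and 51 were called, 33 lower and 18 higher. That is 57.3%, against 44.7% of all tested genes, and the median log2 fold change was -0.083 against 0.00087. Among other desaturases, 2 of 3 tested genes were called, in opposite directions. SCD, which desaturates stearate and palmitate, fell from 2365 ± 76.5 in control to 1188 ± 24.7 CPM with ELAPOR1 (log2 change -0.99, edgeR adjusted p = 7.1e-25). DEGS1, which desaturates dihydroceramide, rose from 43.5 ± 0.939 in control to 62.0 ± 1.70 CPM with ELAPOR1 (log2 change 0.51, edgeR adjusted p = 7.5e-11).

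**Figure D4:**
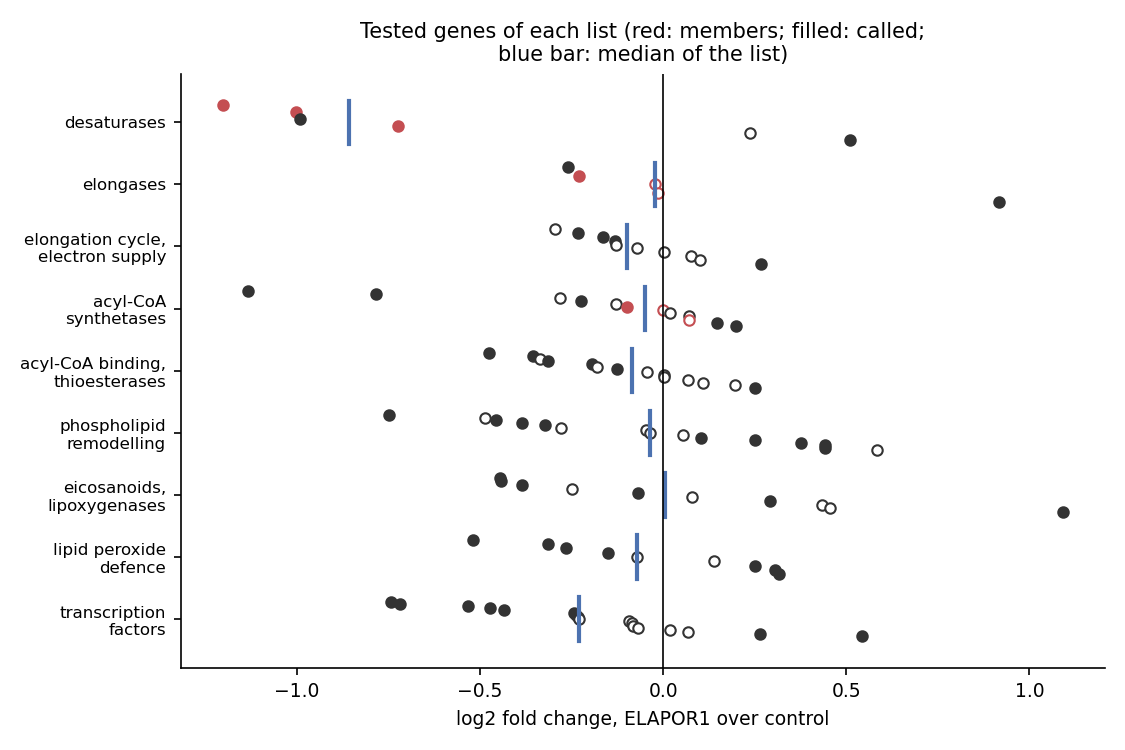
Log2 fold change of every tested gene in each of the 9 lists (points; red for the members, filled where called, height within a row for visibility only) with the median of the list (blue bar). With the members included, the desaturases have a median of -0.86 and the transcription factors of -0.23, and the other 7 medians lie between -0.10 and 0.0058. Without the members, the medians are 0.24 for 3 desaturases, 0.33 for 2 elongases and -0.13 for 9 synthetases.

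Of 10 tested genes of the elongation cycle and of electron supply, 3 were called lower and 1 higher, a share below the 44.7% of all tested genes. TECR, the reductase that ends each round of elongation, fell from 143 ± 5.25 in control to 121 ± 5.35 CPM with ELAPOR1 (log2 change -0.23, edgeR adjusted p = 5.2e-06). CYB5B, a cytochrome b5 of the mitochondrial outer membrane, rose by 0.27 on the log2 scale (adjusted p = 1.2e-08). Of 9 tested synthetases outside the group, 3 were called lower and 2 higher, or 55.6%. SLC27A1, a fatty acid transport protein with synthetase activity, fell from 9.40 ± 1.15 in control to 4.29 ± 0.305 CPM with ELAPOR1 (log2 change -1.13, edgeR adjusted p = 6.0e-09). ACSS2, which activates acetate for lipid synthesis, fell from 126 ± 7.23 in control to 73.0 ± 4.15 CPM with ELAPOR1 (log2 change -0.79, edgeR adjusted p = 5.3e-16). Of 14 tested genes for acyl-CoA binding proteins, fatty acid binding proteins and thioesterases, 5 were called lower and 1 higher, or 42.9%, again below the share over all tested genes. Among them were ACBD4 (log2 fold change -0.36, edgeR adjusted p = 5.2e-03) and ACOT4 (-0.48, adjusted p = 8.9e-03), a call that was lost without control replicate 3 (adjusted p = 0.0516).

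Genes that use polyunsaturated acyl chains went in both directions. Of 15 tested genes of phospholipid acyl remodelling, 5 were called higher and 4 lower, or 60%, against 44.7% of all tested genes. LPCAT3, which places arachidonate in phospholipids, rose from 26.0 ± 1.25 in control to 35.3 ± 1.37 CPM with ELAPOR1 (log2 change 0.44, SE 0.0610, edgeR adjusted p = 2.9e-07). LPCAT4 fell from 70.8 ± 5.99 in control to 51.6 ± 2.30 CPM with ELAPOR1 (log2 change -0.46, edgeR adjusted p = 1.6e-08). Of 10 tested eicosanoid and lipoxygenase genes, 4 were called lower and 2 higher, or 60%. The genes called higher, named after their values were seen, were PTGS2, the inducible cyclooxygenase (1.05 ± 0.224 CPM in control and 2.25 ± 0.435 CPM with ELAPOR1, log2 change 1.09, edgeR adjusted p = 1.2e-03), and EPHX1, an epoxide hydrolase (0.29, adjusted p = 2.6e-04). PTGS2 had 13 to 20 counts in control and 29 to 39 in ELAPOR1 libraries. Among the genes called lower were PTGES, a prostaglandin E synthase (-0.45, edgeR adjusted p = 5.6e-05), and ALOX5, the lipoxygenase of leukotriene synthesis (-0.44, adjusted p = 4.1e-03). Of 9 genes linked to lipid peroxidation or to the defence against it, 4 were called lower and 3 higher, or 77.8%. SLC7A11, the cystine transporter, fell from 49.7 ± 2.03 in control to 34.8 ± 2.45 CPM with ELAPOR1 (log2 change -0.52, edgeR adjusted p = 2.2e-09). NQO1, a quinone reductase, rose from 246 ± 7.99 in control to 306 ± 5.59 CPM with ELAPOR1 (log2 change 0.32, edgeR adjusted p = 2.1e-10). NQO1 and CYB5B, which also rose, both lie on chromosome 16, with starts at 69706996 and 69424525. The genes around them were not examined.

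Of 17 transcription factors and sterol sensors linked to these genes, 8 were called lower and 2 higher. That is 58.8%, against 44.7% of all tested genes (22.1% lower and 22.6% higher). The median log2 change was -0.23, against 0.00087 over all tested genes. PPARG, a nuclear receptor for fatty acids, fell from 11.1 ± 0.802 in control to 6.65 ± 0.859 CPM with ELAPOR1 (log2 change -0.74, edgeR adjusted p = 1.1e-06). INSIG1, which holds SREBPs in the endoplasmic reticulum and is itself their target, fell from 185 ± 7.14 in control to 112 ± 6.18 CPM with ELAPOR1 (log2 change -0.72, edgeR adjusted p = 8.0e-17). SREBF1 (log2 change -0.43, edgeR adjusted p = 7.3e-10) and SREBF2 (-0.47, adjusted p = 1.8e-14), which encode the SREBPs, were also called lower. Transcript levels do not show the activity of these factors, and their part in the lower desaturases was not tested.

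Genes with a profile like that of the leading member of each family were sought among the 10703 tested genes whose mean reached 5 CPM. Likeness was the root mean square difference in log2(CPM + 1), centred on the control mean, over the 8 libraries, and it is dominated by the size of the change between groups. Nearest to FADS2 were FGFBP1, a fibroblast growth factor binding protein (0.097), MACROD1, an ADP-ribose hydrolase (0.14), and GLUL, glutamine synthetase (0.14). FADS3 lay at 0.18 and FADS1 at 0.34 from FADS2. Nearest to ELOVL7 were BCORL1 (0.029), MYO18A (0.029) and GLB1 (0.031), and nearest to ACSL4 were ANO6 (0.019), OSMR (0.020) and LRRC58 (0.020).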

How the data were processed

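Expression was measured by RNA sequencing in 4 control and 4 ELAPOR1 libraries, grouped by the condition label. The authors deposited estimated counts per gene, not scaled between libraries. Per the submitters' processing notes, cutadapt, STAR, RSEM and DESeq2 were used with build hg38; versions, annotation and strand use are not given in the sources used here. Of nonzero values, 15.0% were not whole.

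The expected counts were rounded; edgeR 4.0.16 (R 4.3.3) was used for testing (filterByExpr, TMM, robust quasi-likelihood test, two-sided, no covariate). P-values were adjusted by Benjamini-Hochberg over 13860 tested genes and called under 0.05. The standard error is the log2 fold change divided by the square root of F, and intervals are 95%. CPM values are counts per 1000000, TMM scaled. Levels per kilobase, overlaps and neighbours come from GENCODE 29, which held 58597 of 58870 gene identifiers.

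The members and the 9 lists were chosen with earlier results of these data known, so no list was tested as a set. Genes named are the members, other genes of their families, the 2 called genes with the largest change per list with a mean no lower than 5 CPM, and the 3 genes most like the leading member of each family. Outside this rule, cell type markers, genes next to FADS2, PTGS2, EPHX1, SREBF1 and SREBF2 were named after their values were seen. Alternatives were other scalings (DESeq2 size factors, total count, upper quartile), the DESeq2 1.42.0 Wald test, limma-voom (limma 3.58.1), other filters, a replicate block, each library left out, ELAPOR1 left out, a stricter threshold of 0.01 and a test against 1.5-fold. Removal of GC and length trends was added after seeing the data.

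In 12 pairs of libraries within a group, chi-square per gene was 1.94 to 6.12, so no library was a copy of another. The fit was tested on simulated data.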

Additional observations from a re-analysis of the deposited data

Results flagged for a closer look

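In 4 of 86 groups of 4 libraries examined (library totals, sums of the families and CPM of the genes named), 1 library stood apart by the 95% limit of the Dixon test for a single outlying value. Chance gives about 1 in 20, here 4.3. No member of the group was among them.

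ACSL6 was at 0.180 CPM in control replicate 3 and at 0.0554 to 0.0610 CPM in the other control libraries, a matter of 3 counts against 1. ACSS2 was at 79.2 CPM in ELAPOR1 replicate 3 and at 70.5 to 71.4 CPM in the other ELAPOR1 libraries. NQO1 was at 298 CPM in ELAPOR1 replicate 4 and at 308.9 to 309.3 CPM in the others, and BCORL1 at 13.3 CPM in control replicate 2 and at 14.1 to 14.2 CPM in the others.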

How the results depend on the processing

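FADS2 and FADS3 were lower and called under all 19 alternatives, with log2 fold changes of -1.27 to -1.11 and -1.05 to -0.96. FADS1 (-0.77 to -0.68) and ELOVL7 (-0.25 to -0.20) lost their call only in the test against 1.5-fold, and ACSL4 (-0.13 to -0.078) there, with total count scaling and at the stricter threshold of 0.01, where 4682 genes, 4 members and 45 list genes were called. The 1.5-fold test called 215 genes in all, 2 members and 4 of the pathway list genes. Of the uncalled members, ELOVL1 changed sign when GC and length trends were removed (0.034), ELOVL5 with total count scaling (0.0061) and ACSL3 with total count scaling (0.020) and without single libraries (-0.028 to 0.022), none past the threshold. ACSL1 stayed positive (0.034 to 0.10) and uncalled.

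With the replicate number as a block, 5926 genes and the same number of members (5) were called. Same-numbered libraries did not deviate together (correlations of -0.11 to 0.036 over 10703 genes, with 0 of 4 libraries correlating best with their own number), so the numbers were not used as pairs. Leaving out single libraries gave 5557 to 6316 called genes, 5 members each time, and 47 to 53 list genes. Of 42 other genes named with a test, EPCAM, which was not called, changed sign when GC and length trends were removed (0.0092), and none of the others did. COL1A1, CSF1R, VWF, SREBF1 and SREBF2 were not among the 42. Calls were lost without single libraries for ELOVL3, ACOT4, BCORL1, ANO6 and OSMR, for ANO6 in 7 of 8 such fits. With total count scaling, ANO6, OSMR and LRRC58 lost their call. The test against 1.5-fold took the call from 32 of the 42 genes. Over the settings the median change of all tested genes stayed between -0.0074 and 0.022. ELOVL4, ELOVL2 and ACSL6 had too few counts for the filter and were not tested.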
